A study of Mus musculus with 6 samples.

Results

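The integrin, cadherin and syndecan genes of mouse fibroblasts were followed across Mki67 knockout and wild-type cells. Members were taken by symbol from the protein-coding genes of the annotation: the integrin alpha and beta chains, the 4 syndecans, and the cadherins named Cdh with a number up to 26. Integrin-binding proteins that only share the prefix were left out. The rule gave 54 of the 54146 genes counted, namely 18 integrin alpha chains, 9 integrin beta chains, 23 cadherins and 4 syndecans. The rule uses symbols and gene type alone, but it was set with earlier results of these data known.

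Total RNA was sequenced from 3 groups of NIH/3T3 cells, an immortalised fibroblast line from Swiss albino mouse embryos, with 2 libraries in each group. The groups were Mki67-/- clone 1, Mki67-/- clone 2 and wild type (WT), all grown in high-glucose DMEM with foetal bovine serum. Mki67 encodes Ki-67, a nuclear protein of proliferating cells. Each knockout group is 1 clone, so the knockout and variation between clones cannot be told apart where 1 clone differs. A change shared by both clones is set against the same WT libraries. It cannot be told apart from a difference particular to those WT cells. The way the clones were made is not given in the sources. Nothing in the labels says that replicates were separate cultures; the p-values therefore reflect the spread between these libraries alone, possibly only technical spread. The RNA protocol speaks of 4T1 cells, which are of mammary tumour origin, but titles, source and tissue all name NIH/3T3 fibroblasts.

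Integrins are receptors made of 1 alpha and 1 beta chain that hold cells to the extracellular matrix and, in some pairs, to other cells. The beta chain decides which alpha chains can be joined, and the pair decides the ligand: fibronectin, vitronectin and other proteins with an RGD motif, laminins, collagens, or cell surface proteins. Cadherins join neighbouring cells through calcium-dependent contacts and bind catenins inside the cell. Syndecans are membrane proteoglycans whose heparan sulfate chains bind matrix and growth factors, and they act beside integrins at adhesion sites.

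Of the 8 members that were called in the same direction in both clones, 4 had a RefSeq promoter window. The 250 bases before the RefSeq start are shown for Itga3, Itgav and Itgb7, the only members called higher in both clones. They are written 5′ to 3′ on the gene's strand in GRCm38.p6, with capitals marking the motifs that were searched. The windows lie at chr11:95076715-95076964 (minus strand), chr2:83724147-83724396 (plus strand) and chr15:102231936-102232185 (minus strand).
Itga3: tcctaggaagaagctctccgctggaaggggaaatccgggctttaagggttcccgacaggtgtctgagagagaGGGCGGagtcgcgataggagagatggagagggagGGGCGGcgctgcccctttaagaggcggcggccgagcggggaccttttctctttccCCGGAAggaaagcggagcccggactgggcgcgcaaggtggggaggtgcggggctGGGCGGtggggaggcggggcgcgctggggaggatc
Itgav: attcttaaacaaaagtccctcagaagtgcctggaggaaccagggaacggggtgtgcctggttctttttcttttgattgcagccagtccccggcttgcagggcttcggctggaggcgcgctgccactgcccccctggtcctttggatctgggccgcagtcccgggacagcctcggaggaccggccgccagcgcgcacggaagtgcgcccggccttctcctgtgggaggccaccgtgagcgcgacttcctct
Itgb7: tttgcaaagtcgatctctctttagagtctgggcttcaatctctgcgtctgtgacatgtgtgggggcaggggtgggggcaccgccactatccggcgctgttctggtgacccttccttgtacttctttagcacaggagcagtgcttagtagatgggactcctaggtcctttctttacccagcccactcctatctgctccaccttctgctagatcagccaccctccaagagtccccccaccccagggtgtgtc
The motifs, read on both strands, were the GC box GGGCGG, the ETS core CCGGAA, the AP-1 site TGANTCA, the cyclic AMP response element TGACGTCA, the TATA box TATAAA and the TEAD core GGAATG. The Itga3 window held 3 GC boxes and 1 ETS core, and neither the Itgav nor the Itgb7 window held any of these 6 motifs. Among all 32851 windows of this length, 32.7% held the GC box, 12.0% the ETS core, 6.75% the AP-1 site, 1.55% the cyclic AMP response element, 12.4% the TATA box and 12.6% the TEAD core. The GC content was 67.6% for Itga3, 64.4% for Itgav and 56.0% for Itgb7. A further RefSeq window of Itga3 at chr11:95069199-95069448, not printed here, held 1 GC box, none of the other motifs, and 50.8% GC. A match is only a description of the letters.

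Gene counts per library ran from 15087148 to 19678782 in the knockout clones and were 3873249 and 11377172 in WT, so WT replicate 1 was the shallowest. A floor of 3 counts stood at 0.152 to 0.775 CPM (counts scaled to a common total of gene counts per library). Mki67 itself had 4.27 and 4.71 CPM in clone 1, 4.41 and 7.82 CPM in clone 2, against 46.7 and 53.8 CPM in WT. Of 10 fibroblast markers 8 were detected well enough to test, and their summed level was 6949 to 7282 CPM in clone 1 and 7831 to 7839 CPM in clone 2, against 8535 to 9986 CPM in WT; Fap and Lum had 0 counts throughout. The 10 epithelial markers summed to at most 1.58 CPM in any library, with Epcam at 0. In such bulk samples, fewer cells of a type and less RNA per cell cannot be told apart.

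Of the 54 members, 25 passed the filter on low counts and were tested: 9 alpha chains, 7 beta chains, 5 cadherins and all 4 syndecans. In the mean of both clones against WT, 5 members rose (20.0%) and 6 fell (24.0%), beside 16.6% and 18.2% of the 13120 genes tested, or 34.8% either way. Adjusted p-values come from edgeR's quasi-likelihood test with Benjamini-Hochberg adjustment over all of these genes, and a gene was called below 0.05. In clone 1, 7 members rose (28%) and 5 fell (20%), beside 15.2% and 16.5% of all genes, or 31.7% either way. In clone 2, 3 rose (12%) and 6 fell (24%), beside 12.9% and 14.5%, or 27.4% either way. In both clones the 3 members Itga3, Itgav and Itgb7 rose (background 9.57%), and the 5 members Itga6, Itga9, Itgb2, Itgb3 and Cdh5 fell (background 11.2%). Of these, Itga9 passed the filter through the WT libraries alone and could only be called lower. The median log2 change of the tested members was 0.07, against 0.0049 for all genes, and setting Itga9 at its lower bound left it at 0.07. Either way, 44% of the tested members were called in the mean of both clones, 48% in clone 1 and 36% in clone 2, and the difference of these shares from those of all genes was not tested. Rises and falls occurred side by side within the alpha and the beta chains. The 2 clone contrasts share the WT libraries.

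**Figure D1:**
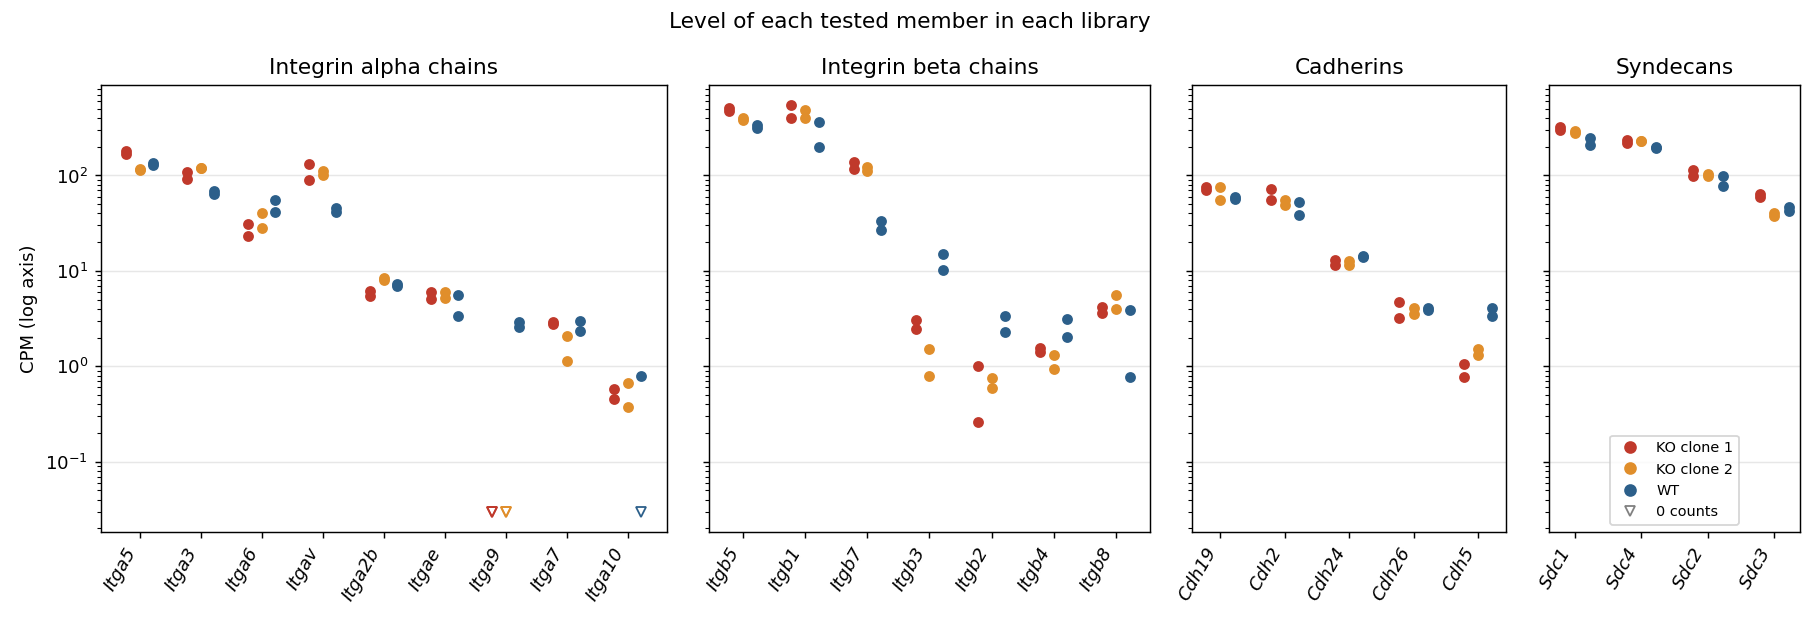
Level of each tested member in each of the 6 libraries, in CPM on a log axis, with members ordered by their WT mean within each family. Points are single libraries of clone 1, clone 2 and WT, and open triangles at the lower edge mark 0 counts. Itgb7 and Itgav lie higher in every knockout library than in either WT library, and Itga9 lies at 0 in all 4 knockout libraries.

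Among the alpha chains, Itgav and Itga3 rose and Itga6 and Itga9 fell in both clones. Of the 9 tested these are 22.2% each, beside 9.57% and 11.2% of all genes, a difference that was not tested. Itgav (ENSMUSG00000027087, chr2:83724397-83806916, plus strand, GRCm38) encodes the alpha V chain of the vitronectin and other RGD receptors. It had 90.4 and 132 CPM in clone 1, 110 and 101 CPM in clone 2, against 41.6 and 45.9 CPM in WT. Every knockout library lay above both WT libraries, although the clone 1 libraries differed between themselves. The log2 change was 1.22 ± 0.15 (SE) for the mean of both clones (adjusted p 3.77e-05), 1.26 ± 0.17 in clone 1 (7.97e-05) and 1.18 ± 0.17 in clone 2 (0.000179).

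Itga3 (ENSMUSG00000001507, chr11:95044474-95076801, minus strand) encodes the alpha 3 chain, a laminin receptor with Itgb1. It had 109 and 92.0 CPM in clone 1, 119 and 120 CPM in clone 2, against 68.2 and 63.2 CPM in WT. The 4 knockout libraries were all higher than the WT pair. On the log2 scale the change was 0.66 ± 0.12 for the mean of both clones (adjusted p 0.000949), 0.54 ± 0.14 in clone 1 (0.00834) and 0.79 ± 0.14 in clone 2 (0.000923). Without clone 1 replicate 1 the clone 1 value was 0.40 and was no longer called (0.0988).

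Itga9 (ENSMUSG00000039115, chr9:118606690-118901003, plus strand) encodes the alpha 9 chain, a receptor for tenascin-C, osteopontin and VCAM1 with Itgb1. No read was counted on it in any of the 4 knockout libraries, against 10 and 33 reads, or 2.58 and 2.90 CPM, in WT. With 3 counts over the group as the limit that a count of 0 allows, the level was at least 62.1-fold lower in the knockout libraries together, at least 33.1-fold lower in clone 1 and at least 29.1-fold lower in clone 2. Itga9 passed the filter on low counts through the WT libraries alone, so it could be called lower but not higher. Its adjusted p, 2.72e-06 for the mean of both clones, 1.55e-05 in clone 1 and 2.74e-05 in clone 2, is therefore only a description. It was a sparse transcript in WT cells as well, so the bounds rest on 43 WT reads.

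Itga6 (ENSMUSG00000027111, chr2:71745616-71858416, plus strand) encodes the alpha 6 chain, another laminin receptor. It had 23.2 and 31.3 CPM in clone 1, 40.7 and 28.4 CPM in clone 2, against 41.6 and 55.2 CPM in WT. Clone 1 lay clearly below WT, whereas the higher clone 2 library nearly reached the lower WT library. On the log2 scale the change was -0.76 ± 0.17 for the mean of both clones (adjusted p 0.00353), -0.93 ± 0.20 in clone 1 (0.00304) and -0.59 ± 0.20 in clone 2 (0.0392). The clone 2 call was lost when scaling used library totals alone (-0.51, adjusted p 0.102), without WT replicate 2 (-0.36, 0.160) and without clone 2 replicate 2 (-0.36, 0.308).

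Itga5 (ENSMUSG00000000555, chr15:103344286-103366763, minus strand), the alpha chain of the main fibronectin receptor, differed between the clones. It had 182 and 168 CPM in clone 1, 115 and 117 CPM in clone 2, against 128 and 136 CPM in WT. Clone 1 stood above WT and clone 2 below it, and neither difference was called, nor was their mean (0.03 ± 0.11, adjusted p 0.858): the log2 change was 0.33 ± 0.12 in clone 1 (adjusted p 0.0592) and -0.27 ± 0.13 in clone 2 (0.130). The clone 1 change was called in 2 of 14 alternatives, with library totals alone (0.40, 0.0184) and without the filter on low counts (0.39, 0.0281). The difference between clones, clone 2 minus clone 1, was -0.59 ± 0.12 on the log2 scale and was called (0.0138). It was not called when any 1 of the 4 knockout libraries was left out, with values of -0.67 to -0.53 and adjusted p of 0.0550 to 0.199.

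The other 4 tested alpha chains were low and not called in any contrast. Itga2b, the platelet alpha chain, had 5.44 to 8.38 CPM in the knockout libraries and 6.97 and 7.21 CPM in WT, with a log2 change of -0.13 ± 0.19. Itgae, which pairs with Itgb7 on lymphocytes, had 5.03 to 6.07 CPM in the knockout libraries and 3.36 and 5.54 CPM in WT (0.13 ± 0.23). Itga7, the muscle laminin receptor, had 1.13 to 2.90 CPM in the knockout libraries and 2.32 and 2.99 CPM in WT (-0.45 ± 0.30). Itga10 had 0.378 to 0.663 CPM in the knockout libraries and 0 and 0.791 CPM in WT (-0.24 ± 0.62), and 33.5% of its exon bases are shared with another gene on the same strand, so its count is uncertain. Of the 9 untested alpha chains, Itga11 had up to 13 counts in a library (0.126 to 0.661 CPM in the knockout libraries, 0 and 0.176 CPM in WT), Itgal had at most 5, and Itga2, Itga8, Itgam and Itgax had at most 1. Itga1, Itga4 and Itgad had no count in any library.

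Among the beta chains Itgb7, Itgb1 and Itgb5 rose and Itgb2, Itgb3 and Itgb4 fell in the mean of both clones. Of the 7 tested these are 42.9% each, beside 16.6% and 18.2% of all genes. In each clone Itgb7, Itgb2 and Itgb3 were called (14.3% higher and 28.6% lower in both clones, beside 9.57% and 11.2%). The difference of these shares from those of all genes was not tested. Itgb7 (ENSMUSG00000001281, chr15:102215995-102231944, minus strand) encodes the beta 7 chain, known from gut-homing and intraepithelial lymphocytes. It had 140 and 117 CPM in clone 1, 110 and 123 CPM in clone 2, against 33.0 and 26.9 CPM in WT. The groups were far apart, with the lowest knockout library well above the higher WT library. The log2 change was 1.98 ± 0.15 for the mean of both clones (adjusted p 3.42e-07), 2.05 ± 0.16 in clone 1 (7.23e-07) and 1.91 ± 0.16 in clone 2 (1.54e-06), which was the largest rise of any member in each of these contrasts.

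Itgb1 (ENSMUSG00000025809, chr8:128685654-128733200, plus strand) encodes the beta 1 chain, the common partner of most matrix-binding alpha chains. It had 404 and 544 CPM in clone 1, 480 and 403 CPM in clone 2, against 200 and 362 CPM in WT. All knockout libraries were above both WT libraries, but the WT pair was wide apart. The log2 change was 0.62 ± 0.19 for the mean of both clones (adjusted p 0.0219), 0.67 ± 0.21 in clone 1 (0.0283) and 0.57 ± 0.21 in clone 2 (0.0635). Without WT replicate 1 the mean change was 0.27 (0.140) and the clone 1 change was 0.32 (0.103). Without WT replicate 2 the mean change was 1.10 and the clone 2 change was 1.05. The clone 2 change was called in 4 of 14 alternatives, among them DESeq2 (0.56, adjusted p 0.0415) and edgeR without the filter on low counts (0.60, 5.13e-05). The mean lost its call without clone 1 replicate 2 (0.51, 0.0680) and without clone 2 replicate 1 (0.55, 0.0564), and the clone 1 change without clone 1 replicate 2 (0.45, 0.240).

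Itgb5 (ENSMUSG00000022817, chr16:33829665-33949338, plus strand) encodes the beta 5 chain, which pairs with alpha V as a vitronectin receptor. It had 512 and 469 CPM in clone 1, 378 and 403 CPM in clone 2, against 313 and 335 CPM in WT. Clone 1 stood highest, and clone 2 lay between clone 1 and WT. On the log2 scale the change was 0.35 ± 0.11 for the mean of both clones (adjusted p 0.0264), 0.52 ± 0.13 in clone 1 (0.00764) and 0.19 ± 0.13 in clone 2 (0.305). The call on the mean did not hold in 6 of 14 alternatives: without WT replicate 1 (adjusted p 0.0759), clone 1 replicate 1 (0.0993), clone 1 replicate 2 (at the threshold), clone 2 replicate 1 (0.0807) or clone 2 replicate 2 (0.123), and in the fit of 2 groups (0.0839). The clone 1 call was lost without clone 1 replicate 1 (0.44, 0.0777).

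Itgb3 (ENSMUSG00000020689, chr11:104608000-104670476, plus strand) encodes the beta 3 chain, another RGD-binding partner of alpha V and the partner of Itga2b on platelets. It had 3.05 and 2.45 CPM in clone 1, 1.51 and 0.795 CPM in clone 2, against 15.0 and 10.3 CPM in WT. Both clones lay far below WT, and clone 2 was the lower of the clones. The log2 change was -2.82 ± 0.25 for the mean of both clones (adjusted p 1.74e-06), -2.19 ± 0.27 in clone 1 (5.25e-05) and -3.44 ± 0.32 in clone 2 (4.21e-06). The difference between the clones, -1.25 ± 0.35, was not called (0.0680), and 4 of 14 alternatives called it, among them the fits without WT replicate 1 (0.00108) and without WT replicate 2 (0.00118).

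Itgb2 (ENSMUSG00000000290, chr10:77530252-77565708, plus strand), the beta chain of leukocytes, had 1.02 and 0.258 CPM in clone 1, 0.757 and 0.597 CPM in clone 2, against 3.36 and 2.29 CPM in WT. Its log2 change was -2.0 ± 0.42 for the mean of both clones (adjusted p 0.00251), -2.0 ± 0.48 in clone 1 (0.00601) and -2.0 ± 0.49 in clone 2 (0.00808). The 10 leukocyte markers went the other way in sum, with 19.0 and 19.6 CPM in clone 1, 20.9 and 24.6 CPM in clone 2, against 5.71 and 6.71 CPM in WT, most of it from Csf1r. Ptprc, which encodes the common leukocyte antigen CD45, had 0 counts in the knockout libraries and 0.258 and 0.352 CPM in WT. Without clone 1 replicate 1 the clone 1 change was -3.36. No Itgb2 partner chain passed the filter.

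Itgb4 (ENSMUSG00000020758, chr11:115974709-116008412, plus strand), the epithelial partner of Itga6 in hemidesmosomes, had 1.42 and 1.55 CPM in clone 1, 0.946 and 1.33 CPM in clone 2, against 3.10 and 2.02 CPM in WT. Its log2 change was -0.92 ± 0.32 for the mean of both clones (adjusted p 0.0385), -0.73 ± 0.35 in clone 1 (0.126) and -1.12 ± 0.37 in clone 2 (0.0374). Both calls failed in 8 of 14 alternatives. For the mean these included leaving out WT replicate 1 (-0.70, 0.179), clone 1 replicate 1 (-0.89, 0.0752), clone 1 replicate 2 (-0.95, 0.0701) or clone 2 replicate 1 (-0.81, 0.111), and over all 14 the adjusted p ranged from 0.0286 to 0.179. The clone 2 call was lost without each of these libraries and without clone 2 replicate 2 (adjusted p 0.0521 to 0.227). Itgb8, an alpha V partner known for activating latent TGF-beta, had 3.61 to 5.63 CPM in the knockout libraries and 0.775 and 3.87 CPM in WT, and was not called (0.48 ± 0.34, adjusted p 0.295). Without WT replicate 2 its value was 2.37 and was called (0.00119), and rested on WT replicate 1 alone. Itgb6 had 1 count in all and Itgb2l had none.

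**Figure D2:**
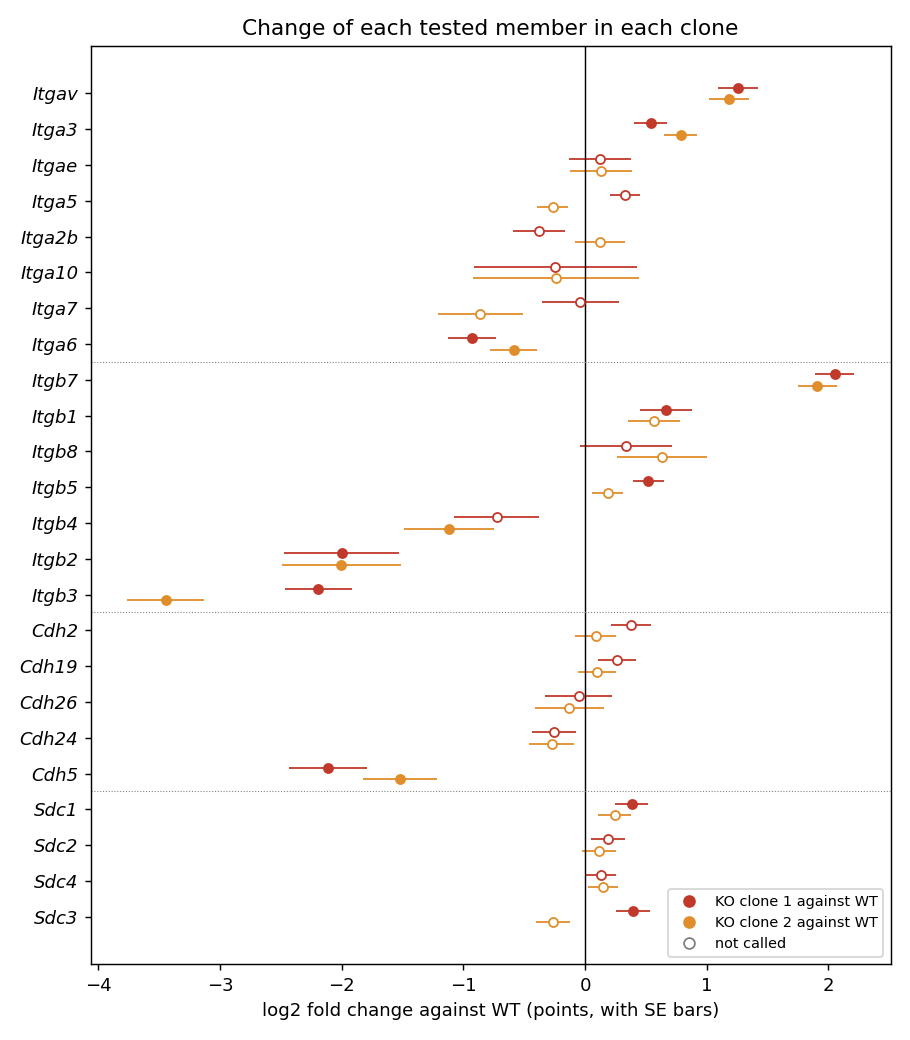
Log2 fold change against WT of each tested member in clone 1 and clone 2, with bars of 1 SE; filled points were called at an adjusted p below 0.05 and open points were not. Itga9 is not drawn because its knockout level was 0. Itgb7 lies furthest to the right, at 2.05 in clone 1 and 1.91 in clone 2, and Itgb3 in clone 2 furthest to the left, at -3.44.

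Levels of different chains were compared after division by exon length, in CPM per kilobase (CPM/kb). The alpha chains together summed to 69.3 ± 0.501 CPM/kb in clone 1 and 61.2 ± 1.18 CPM/kb in clone 2, against 50.8 ± 2.41 CPM/kb in WT (SD, n = 2 each). The beta chains summed to 302 ± 9.71 CPM/kb in clone 1 and 261 ± 4.85 CPM/kb in clone 2, against 174 ± 30.03 CPM/kb in WT. Thus the summed beta level was 1.73 times that of WT in clone 1 and 1.5 times in clone 2, and the summed alpha level 1.36 and 1.21 times. These sums were not tested.

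Within the alpha sum Itga5 took the largest share in every library, with 53.0% and 49.4% in clone 1 and 37.6% and 39.4% in clone 2, against 53.0% and 52.4% in WT. Itgav took 12.1% and 17.8% in clone 1 and 16.5% and 15.6% in clone 2, against 7.88% and 8.13% in WT. Itga6 took 3.70% and 5.03% in clone 1 and 7.26% and 5.21% in clone 2, against 9.38% and 11.6% in WT. Alpha V thus overtook alpha 6 as the third chain after alpha 5 and alpha 3 in each knockout library.

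Within the beta sum Itgb5 and Itgb1 were the leading pair in all libraries. The share of Itgb7 was 17.1% and 13.7% in clone 1 and 15.0% and 17.3% in clone 2, against 7.78% and 4.96% in WT. The share of Itgb3 was 0.175% and 0.135% in clone 1 and 0.0968% and 0.0523% in clone 2, against 1.66% and 0.890% in WT. Itgb1 held 33.5% to 44.4% in the knockout libraries and 32.0% and 45.3% in WT, so its share overlapped between the groups.

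**Figure D3:**
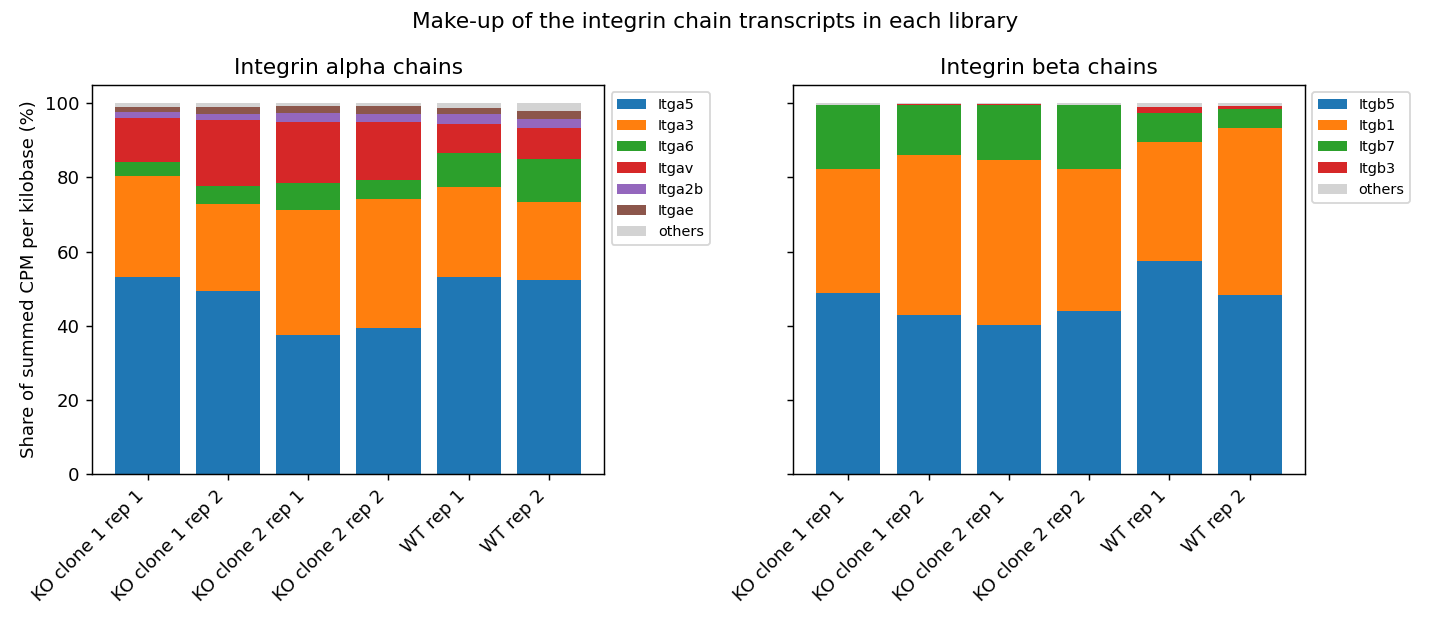
Share of the summed length-scaled level (CPM/kb, in percent) held by each chain within the integrin alpha chains and the integrin beta chains, with 1 stacked bar per library and clone 1, clone 2 and WT from left to right. Chains above 1% in some library are drawn, and the rest are pooled as others. The Itgb7 segment is 13.7% to 17.3% in the knockout bars and 4.96% and 7.78% in the WT bars.

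For the pairs that these chains can form, 24 known heterodimers were listed, and both chains were tested for 13 of them. The level of the scarcer chain gives a ceiling on transcript supply only and says nothing of protein or surface receptor. For alpha 5 beta 1 the scarcer chain was Itga5, at 36.9 and 34.0 CPM/kb in clone 1, 23.3 and 23.8 CPM/kb in clone 2, against 26.01 and 27.5 CPM/kb in WT. For alpha V beta 5 and alpha V beta 1 it was Itgav, at 8.41 and 12.3 CPM/kb in clone 1, 10.3 and 9.41 CPM/kb in clone 2, against 3.87 and 4.27 CPM/kb in WT. For alpha V beta 3 it was Itgb3, at 0.517 and 0.416 CPM/kb in clone 1, 0.256 and 0.135 CPM/kb in clone 2, against 2.54 and 1.74 CPM/kb in WT. This Itgav value, shared by the beta 5 and beta 1 pairs, was thus higher in each knockout library than in WT, and the Itgb3 value was lower. For alpha V beta 8 the scarcer chain was Itgb8, at 0.326 to 0.509 CPM/kb in the knockout libraries and 0.0700 and 0.350 CPM/kb in WT, which overlapped.

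Itgb7 had little to pair with. Of its partners, Itga4 had 0 counts in all 6 libraries, and Itgae stood at 1.10 and 1.32 CPM/kb in clone 1, 1.13 and 1.30 CPM/kb in clone 2, against 0.733 and 1.21 CPM/kb in WT, whereas Itgb7 itself stood at 39.8 to 50.6 CPM/kb in the knockout libraries and 11.9 and 9.71 CPM/kb in WT. E-cadherin (Cdh1), the listed ligand of alpha E beta 7, was at 0.258 to 0.508 CPM in the knockout libraries and 0.516 and 0.352 CPM in WT. Madcam1, the gut ligand of alpha 4 beta 7, had 1 count in all.

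The ligand genes were grouped by receptor class, and members of each list were named by size of change among those called in both clones. Of 27 genes for fibronectin and other RGD-type or alpha 9 ligands, 19 were tested, and 4 rose and 12 fell in the mean of both clones (21.1% and 63.2%, beside 16.6% and 18.2% of all genes). The median log2 change of the list was -0.81, against 0.0049 for all genes. In clone 1, 5 rose and 11 fell (26.3% and 57.9%, beside 15.2% and 16.5%), and in clone 2, 4 rose and 12 fell (21.1% and 63.2%, beside 12.9% and 14.5%). Tnc (tenascin-C) had 17.3 and 18.8 CPM in clone 1, 18.0 and 17.8 CPM in clone 2, against 462 and 487 CPM in WT, a log2 change of -4.80 ± 0.11 (adjusted p 1.79e-12). Spp1 (osteopontin) fell by 2.12 ± 0.15 on the log2 scale (2.31e-07), with 116 and 121 CPM in clone 1, 266 and 250 CPM in clone 2, against 534 and 906 CPM in WT. Npnt (nephronectin, the ligand of alpha 8 beta 1) fell by 1.5 ± 0.14 (3.69e-06).

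The ligands that rose were Thbs1, Ccn1 and Emilin1 among those the rule names. Thbs1 (thrombospondin 1) had 926 and 1106 CPM in clone 1, 864 and 736 CPM in clone 2, against 325 and 368 CPM in WT, a log2 change of 1.30 ± 0.13 (adjusted p 6.86e-06). Ccn1, a matricellular alpha V ligand, rose by 1.24 ± 0.14 (2.16e-05), and Emilin1, a ligand of alpha 9 beta 1, by 0.94 ± 0.12 (4.29e-05). Set by receptor, the alpha 9 beta 1 ligands split: Tnc, Spp1 and Vcam1 fell with Itga9, Emilin1 rose, and Svep1 was not called (-0.03 ± 0.13). For alpha V beta 3, Spp1, Tnc and Fn1 fell with Itgb3, Thbs1 rose, and Vtn was not tested.

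Some ligands of the abundant receptors were named for their receptor after their values were seen. Fn1 (fibronectin) had 586 and 570 CPM in clone 1, 390 and 378 CPM in clone 2, against 614 and 971 CPM in WT, and was lower by log2 -0.83 ± 0.15 (adjusted p 0.000717). Both Fn1 and its main alpha chain Itga5 were thus lower in clone 2 than in clone 1 in each library, although the difference between the clones was called for Itga5 alone. For alpha V beta 5, vitronectin (Vtn) was at most 0.264 CPM in any library and was not tested. Mfge8, its other listed ligand, had 484 and 440 CPM in clone 1, 537 and 594 CPM in clone 2, against 451 and 405 CPM in WT, and was not called (0.18 ± 0.12, adjusted p 0.270). Cells grown in serum also meet bovine vitronectin and fibronectin, which these counts cannot show.

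Laminins are bound by alpha 3, alpha 6 and alpha 7 pairs. Of 11 laminin chains, 8 were tested, and 2 rose and 3 fell in the mean of both clones (25% and 37.5%, beside 16.6% and 18.2% of all genes), with a median of -0.08. The count that rose was 1 without clone 1 replicate 2 and 0 without clone 2 replicate 1 or with DESeq2. In clone 1, 2 rose and 2 fell (25% each, beside 15.2% and 16.5%), and in clone 2, 0 rose and 3 fell (0% and 37.5%, beside 12.9% and 14.5%). Lama2 had 0.102 and 0.129 CPM in clone 1, 0.126 and 0 CPM in clone 2, against 6.45 and 16 CPM in WT (-7.09 ± 0.45, adjusted p 7.11e-08). In clone 2 it had 2 counts, giving a ratio of WT over clone 2 of 210 with a 95% counting interval of 57.4 to 1746. Lama2 passed the filter on low counts through the WT libraries alone, so its adjusted p is only a description. Lama4 had 2.13 and 1.81 CPM in clone 1, 1.13 and 1.33 CPM in clone 2, against 11.1 and 23.5 CPM in WT (-3.63 ± 0.25, 1.90e-07). Both are listed ligands of alpha 6 beta 1, whose alpha chain also fell, and of alpha 7 beta 1, whose alpha chain was not called. Lama5, chosen after its values were seen, is a listed ligand of alpha 3 beta 1, alpha 6 beta 1 and alpha 6 beta 4. It rose in the mean of both clones, as Itga3 did, while Itga6 and Itgb4 fell. In clone 2 Lama5 was not called higher, whereas Itga3 was, and in clone 1 Itgb4 was not called. Lama5 had 5.95 and 8.52 CPM in clone 1, 4.41 and 3.71 CPM in clone 2, against 2.07 and 3.16 CPM in WT (0.86 ± 0.27, 0.0256). That call was lost without clone 1 replicate 2 (0.72), without clone 2 replicate 1 (0.80) and in 3 further alternatives. The remaining alpha 3 ligand, Lama3, was at most 0.504 CPM and untested.

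Collagens stood at high levels while their integrin receptors were nearly absent. Itga1 had no count, Itga2 1 count in all, and neither Itga10 nor Itga11 exceeded 0.791 CPM in any library. Of 22 collagen ligand genes, 18 were tested, and 4 rose and 6 fell in the mean of both clones (22.2% and 33.3%, beside 16.6% and 18.2% of all genes), and the median was 0.04, also with sparse genes set at their bounds. The count that rose was 1 without WT replicate 1 and 2 without either clone 2 library. In clone 1, 2 rose and 6 fell (11.1% and 33.3%, beside 15.2% and 16.5%), and in clone 2, 5 rose and 6 fell (27.8% and 33.3%, beside 12.9% and 14.5%). Col1a1 had 540 and 515 CPM in clone 1, 549 and 651 CPM in clone 2, against 273 and 359 CPM in WT (0.75 ± 0.13, adjusted p 0.000819). Col3a1 had 164 to 208 CPM in the 4 knockout libraries, against 429 and 844 CPM in WT (-1.90 ± 0.18, 3.43e-06). Col6a2 (-0.93 ± 0.12, 3.73e-05) and Col6a1 (-0.91 ± 0.11, 4.45e-05) fell together. Fibrillar and microfibrillar collagens thus did not move as 1 group.

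**Figure D4:**
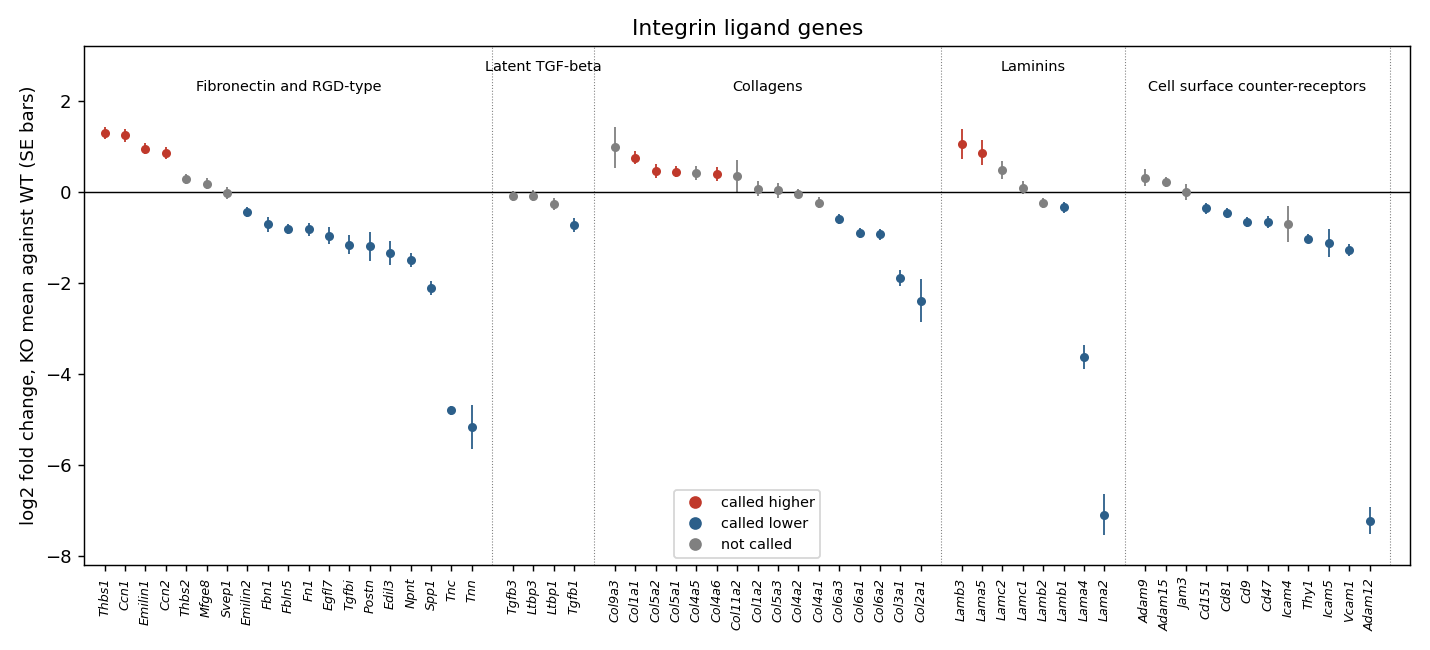
Log2 fold change of the mean of both clones against WT for the tested ligand genes, grouped by ligand list, with a point per gene, bars of 1 SE and colour for genes called higher, called lower or not called. Col4a3, with 0 counts in WT, and Col11a1, with 2 counts in both clones together, are left out; the Adam12 and Lama2 points are fitted values, since clone 2 had 0 and 2 counts of them. Among the RGD-type ligands Thbs1 lies highest, at 1.30, and Tnc, at -4.80, lies near the lower end.

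Other integrin ligands were the latent TGF-beta proteins and the cell surface counter-receptors. Of 6 latent TGF-beta genes 4 were tested and 1 fell (25%, beside 18.2% of all genes), Tgfb1, with 11.8 and 12.4 CPM in clone 1, 8.70 and 11.3 CPM in clone 2, against 17.3 and 17.3 CPM in WT (-0.73 ± 0.16, adjusted p 0.00353). In clone 1 likewise 1 fell (25%, beside 16.5% of all genes), and in clone 2, 2 fell (50%, beside 14.5%). The count that fell in the mean was larger without WT replicate 1. Of 18 counter-receptors and membrane partners 12 were tested, 0 rose and 8 fell in the mean of both clones (0% and 66.7%, beside 16.6% and 18.2% of all genes), with a median of -0.67, and 1 rose without WT replicate 2. In clone 1, 6 fell (50%, beside 16.5%), and in clone 2, 8 fell (66.7%, beside 14.5%), and none rose in either. Vcam1 had 16.7 and 17.2 CPM in clone 1, 31.8 and 27.5 CPM in clone 2, against 43.4 and 58.0 CPM in WT (-1.27 ± 0.14, 1.09e-05). Thy1, a fibroblast surface protein bound by alpha V beta 3, fell by 1.03 ± 0.10 (5.74e-06). Adam12, a metalloprotease that binds alpha 9 beta 1, had 4.88 and 4.00 CPM in clone 1 and 0 counts in both clone 2 libraries, against 30.5 and 27.9 CPM in WT, and was at least 294-fold lower in clone 2. Icam1 and Icam2, the ligands of the leukocyte beta 2 integrins, were at most 0.258 CPM and untested.

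Inside the cell, integrins are joined to actin by talins, kindlins, the ILK complex, zyxin and their kinases. Of 36 such genes 33 were tested, and 7 rose and 7 fell in the mean of both clones (21.2% each, beside 16.6% and 18.2% of all genes), with a median of -0.14. Without clone 2 replicate 1 only 3 rose. In clone 1, 8 rose and 6 fell (24.2% and 18.2%, beside 15.2% and 16.5%), and in clone 2, 3 rose and 11 fell (9.09% and 33.3%, beside 12.9% and 14.5%). Crk, an adaptor downstream of p130Cas, rose by 1.01 ± 0.16 (adjusted p 0.000328), and Lims1, the PINCH subunit of the ILK complex, by 0.68 ± 0.15 (0.00375). Fermt2 (kindlin-2, an integrin activator) rose by 0.54 ± 0.17 (0.0267), a call lost without WT replicate 1 (0.27, 0.185), without clone 1 replicate 2 (0.45, 0.0699) and without clone 2 replicate 1 (0.50, 0.0635), that is, without the same libraries as for Itgb1. Kank1, a talin-binding regulator of adhesion, fell by 1.47 ± 0.17 (2.60e-05), zyxin (Zyx) by 1.10 ± 0.12 (1.48e-05) and the kinase Fyn by 0.69 ± 0.12 (0.000733).

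Few cadherins were expressed, and most of these were not called. Of the 5 tested, Cdh5 alone was called against WT, in the mean and in each clone. That is 20% in each, beside 34.8%, 31.7% and 27.4% of all genes either way in the mean, clone 1 and clone 2. Cdh5 (VE-cadherin, ENSMUSG00000031871, chr8:104101625-104144511, plus strand), the cadherin of endothelium, had 1.07 and 0.775 CPM in clone 1, 1.51 and 1.33 CPM in clone 2, against 3.36 and 4.13 CPM in WT. The groups did not overlap, at low levels. On the log2 scale the change was -1.82 ± 0.27 for the mean of both clones (adjusted p 0.000208), -2.11 ± 0.32 in clone 1 (0.000259) and -1.52 ± 0.30 in clone 2 (0.00253). The 10 endothelial markers summed to 17.7 to 21.1 CPM in clone 1 and 26.2 to 27.1 CPM in clone 2, against 43.1 to 51.7 CPM in WT. Both tested ones, Emcn and Egfl7, fell; Pecam1 was at most 0.559 CPM and Kdr had 0 counts. Their part in the result was not tested.

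Cdh19 (chr1:110888326-110977584, minus strand), known from Schwann cells and the neural crest, was the most abundant cadherin per length in every library, with 51.6% to 60.8% of the cadherin sum in the knockout libraries and 54.1% and 51.1% in WT. It had 71.0 and 76.5 CPM in clone 1, 55.5 and 76.6 CPM in clone 2, against 56.8 and 59.6 CPM in WT, and was not called (0.18 ± 0.14, adjusted p 0.336). Of the 10 Schwann cell and neural crest markers, Sox10, Foxd3, S100b and Ngfr had 0 counts in every library, and the whole list summed to 5.08 to 5.94 CPM in clone 1 and 5.48 to 6.76 CPM in clone 2, against 7.49 to 12.0 CPM in WT. Of the 3 tested, Mbp rose, Erbb3 fell and Tfap2a was not called in the mean of both clones; their part in the Cdh19 level was not tested. N-cadherin (Cdh2), the usual cadherin of fibroblasts, had 55.9 and 72.0 CPM in clone 1, 55.0 and 49.5 CPM in clone 2, against 38.5 and 53.0 CPM in WT, and was not called (0.23 ± 0.15, 0.238), except without WT replicate 2 (0.49, 0.0218). Cdh24 had 11.6 to 13.0 CPM in the knockout libraries and 14.2 and 13.9 CPM in WT (-0.27 ± 0.16), and Cdh26 had 3.23 to 4.67 CPM in the knockout libraries and 4.13 and 3.87 CPM in WT (-0.09 ± 0.25). The cadherin sum was 30.5 ± 1.66 CPM/kb in clone 1 and 27.3 ± 3.06 CPM/kb in clone 2, against 25.9 ± 1.91 CPM/kb in WT (SD, n = 2 each).

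The other 18 cadherins were untested. Cdh1 had at most 10 counts, and Cdh23, the tip-link cadherin of hair cells, had 0.315 to 0.661 CPM in the knockout libraries and 0.258 and 0.176 CPM in WT. Cdh11, often called the fibroblast cadherin, had 1 to 3 counts in each knockout library and 0 in both WT libraries. Cdh15, the muscle cadherin, had 0 to 3 counts in each knockout library and 0 in WT. The 10 skeletal muscle markers summed to 21.0 to 21.9 CPM in clone 1 and 11.2 to 11.7 CPM in clone 2, against 8.26 to 9.14 CPM in WT. Only 1 of them was tested, and it was called higher in both clones. Their relation to Cdh15 was not tested. Cdh18 had 0 or 1 count in the knockout libraries and 1 and 9 in WT. Cdh17 had 1 to 7 counts in the knockout libraries and 0 and 8 in WT, and Cdh3, Cdh9, Cdh10, Cdh16 and Cdh22 had at most 2 in any library. Cdh4, Cdh6, Cdh7, Cdh8, Cdh12, Cdh13 and Cdh20 had no count in any library.

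Catenins and nectins link cadherins and their neighbours to actin. Of 22 genes 17 were tested, and 4 rose and 3 fell in the mean of both clones (23.5% and 17.6%, beside 16.6% and 18.2% of all genes), with a median of 0.18. In clone 1, 6 rose and 1 fell (35.3% and 5.88%, beside 15.2% and 16.5%), and in clone 2, 2 rose and 3 fell (11.8% and 17.6%, beside 12.9% and 14.5%). Pkp2, a desmosomal plakophilin, had 12.0 and 13.6 CPM in clone 1, 7.06 and 6.30 CPM in clone 2, against 3.87 and 3.43 CPM in WT (1.30 ± 0.22, adjusted p 0.000488). Pkp4, an armadillo protein of cell junctions, had 95.9 and 111 CPM in clone 1, 114 and 85.4 CPM in clone 2, against 35.1 and 51.4 CPM in WT (1.12 ± 0.16, 0.000147). Beta-catenin (Ctnnb1, chosen after its values were seen) was not called, at 0.18 ± 0.12 (0.249).

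All 4 syndecans were expressed, and none was called in the mean of both clones (0%, beside 34.8% of all genes either way). In clone 1, 50% were called, beside 31.7%, and in clone 2 0%, beside 27.4%. Sdc1 (ENSMUSG00000020592, chr12:8771323-8793715, plus strand), known from epithelia and plasma cells, had 325 and 299 CPM in clone 1, 275 and 292 CPM in clone 2, against 246 and 208 CPM in WT. Each knockout library was above both WT libraries. The log2 change was 0.31 ± 0.12 for the mean of both clones (adjusted p 0.0537), 0.38 ± 0.13 in clone 1 (0.0432) and 0.24 ± 0.14 in clone 2 (0.200). The mean was called in 4 of 14 alternatives, among them library totals alone (0.39, 0.0154) and edgeR without the filter on low counts (0.36, 0.0100). Without WT replicate 1 it was 0.45. The clone 1 call failed in 7 of 14 alternatives, including the fit without WT replicate 2 (0.26, 0.211) and without each of the 4 knockout libraries (0.31 to 0.45, 0.0946 to 0.245). Sdc4, the syndecan of focal adhesions, had 235 and 220 CPM in clone 1, 231 and 232 CPM in clone 2, against 201 and 194 CPM in WT (0.14 ± 0.11, 0.348). Sdc2 had 98.5 and 114 CPM in clone 1, 103 and 99.6 CPM in clone 2, against 76.7 and 98.4 CPM in WT (0.15 ± 0.12, 0.361). Per length, Sdc4 led in every library, with 41.7% to 45.7% of the syndecan sum in the knockout libraries and 45.6% and 45.9% in WT, followed by Sdc1.

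Sdc3 (ENSMUSG00000025743, chr4:130792537-130826319, plus strand), the neural syndecan, divided the clones in the same way as Itga5. It had 63.6 and 60.1 CPM in clone 1, 38.0 and 40.7 CPM in clone 2, against 47.2 and 42.6 CPM in WT. Clone 1 lay above WT and clone 2 below it, with log2 changes of 0.39 ± 0.14 (adjusted p 0.0431) and -0.26 ± 0.14 (0.182). The clone 1 call was lost in 8 of 14 alternatives, including the fit without WT replicate 2 (0.30, 0.216) and without each of the 4 knockout libraries (0.34 to 0.44, 0.0871 to 0.173). The mean of both clones was 0.07 ± 0.12 (0.721). Clone 2 minus clone 1 was -0.66 ± 0.13 (0.0121), which was not called without clone 1 replicate 1, clone 2 replicate 1 or clone 2 replicate 2 (-0.72 to -0.61, 0.112 to 0.200). Between the clones, 0 members rose and 2, Itga5 and Sdc3, fell, beside 1.18% and 2.36% of all genes, or 3.54% either way.

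The syndecan sum was 212 ± 6.38 CPM/kb in clone 1 and 201 ± 2.96 CPM/kb in clone 2, against 169 ± 5.16 CPM/kb in WT (SD, n = 2 each), or 1.25 and 1.18 times the WT sum. Of 31 genes for heparan sulfate synthesis and syndecan partners 21 were tested, and 2 rose and 3 fell in the mean of both clones (9.52% and 14.3%, beside 16.6% and 18.2% of all genes), with a median of -0.15. The count that rose was 1 without any 1 knockout library and 4 without WT replicate 2, and 5 fell without WT replicate 1. In clone 1, 2 rose and 4 fell (9.52% and 19.05%, beside 15.2% and 16.5%), and in clone 2, 0 rose and 2 fell (0% and 9.52%, beside 12.9% and 14.5%). B3galt6, an enzyme of the linker that joins heparan sulfate to its core protein, had 13.3 and 11.7 CPM in clone 1, 16.01 and 18.4 CPM in clone 2, against 26.3 and 30.2 CPM in WT (-1.04 ± 0.14, adjusted p 9.96e-05). Gipc1, a PDZ protein that binds the syndecan tail, fell by 0.80 ± 0.13 (0.000363).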

How the data were processed

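Strand-specific total RNA libraries (ribosomal RNA depleted, per the labels' protocols) of 6 NIH/3T3 samples were analysed. The authors deposited raw counts of reads per Ensembl gene in STAR's layout. Per the submitters' processing notes, STAR 2.6.0c and FastQC were used with GRCm38; the annotation used for counting was not stated in the material at hand. Reverse-strand counts were used, and 4.68% to 6.10% of counts lay on the opposite strand. Rows naming no gene held 46.6% to 50.5% of reads and were left out. STAR counts neither multimapping reads nor those over overlapping genes, so members that share exons are uncertain.

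Symbols, exon lengths and positions came from GENCODE M21 (GRCm38), which matched 54079 of 54146 identifiers. Genes passing filterByExpr (minimum count 10) were scaled by TMM and fitted with edgeR 4.0.16 in R 4.3.3 (quasi-likelihood, 3 groups, 6 libraries, 3 residual degrees of freedom), with Benjamini-Hochberg adjustment over 13120 genes. Clone 1, clone 2 and their mean were each set against WT, and clone 2 against clone 1. DESeq2 1.42.0 was an alternative, beside other scalings, filters, unstranded counts, a replicate block, a fit of 2 groups and leaving out each library. The method was tested on simulated counts. CPM uses library totals and CPM/kb divides by merged exon length. Floors and intervals cover counting error only.

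Members, lists, heterodimers, motifs and the naming rule were chosen with earlier results of these data known, so no list's direction is independent evidence. Every member was accounted for; members called in any contrast were given in full. From each list up to 3 rises and 3 falls were named, the largest by the mean of both clones among genes called in both clones whose average log2 CPM reached 1.

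No pair of replicates was identical within sampling noise (chi-square divided by its degrees of freedom: clone 1 19.2, clone 2 21.6, WT 12.7). Promoter windows were taken from a RefSeq table of GRCm38.p6.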

Additional observations from a re-analysis of the deposited data

Results flagged for a closer look

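The difference between the clones was called for 2 of the 25 tested members and for 5 named genes of the lists, by edgeR's quasi-likelihood test. Over all genes 3.54% were called. Values are clone 2 minus clone 1 on the log2 scale.

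Both flagged members were lower in clone 2. Itga5, the fibronectin receptor chain, differed by -0.59 (adjusted p 0.0138), and Sdc3, a syndecan, by -0.66 (0.0121). Both had clone 1 above WT and clone 2 below WT.

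Among the ligands, Spp1 differed by 1.12 (adjusted p 0.00319) and Vcam1 by 0.80 (0.0114), so that in both cases clone 2 lay between clone 1 and WT. Thy1 differed by -0.53 (0.0248), with clone 2 further below WT than clone 1. Adam12 differed by -8.91 (4.53e-06), a fitted value that depends on the prior count because clone 2 had 0 counts. The desmosomal gene Pkp2 differed by -0.94 (0.00916), with both clones above WT and clone 1 the higher. These differences of list genes between the clones were not rerun under the alternative settings. No explanation was tested for them.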

How the results depend on the processing

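The alternatives were run for the values of the tested members and, in the mean of both clones only, of the named list genes. Values of list genes between the clones, and those of Cd44 and Tgfbr3, were not rerun. Across 14 alternatives, the values that were rerun kept their direction and side of the threshold in 1147 cases. Of the others, 69 lost a call, 16 gained one and 10 changed sign. No sign change was in a contrast in which the gene was called. The 6 members Itgav, Itgb7, Itgb2, Itgb3, Cdh5 and Itga9 kept their calls in the mean and in each clone wherever an alternative gave a value. For Itga9 these were 13 alternatives. Without WT replicate 2 it had 10 counts in all and was not tested. Itga3 and Itga6 kept the call on the mean in 14 of 14.

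The sign changes were of Itga10 (0.017 with DESeq2, 0.33 with unstranded counts, and -0.67 to 5.87 when 1 library was left out), Cdh26 (-0.25 to 0.025), Itga5 (-0.012 to 0.061), Itgae (-0.063 to 0.63), Sdc3 (-0.029 to 0.15) and Svep1 (-0.14 to 0.14), the last 5 over the fits that left out 1 library; Svep1 was also 0.048 with library totals and 0.019 without the filter on low counts. The cause was not tested. Leaving out 1 library, whose lone partner was taken to vary like the other groups, gave 3 to 7 members called higher in the mean of both clones, 4 to 7 in clone 1, 3 to 5 in clone 2, and 0 to 3 called lower between the clones. Over all genes it gave 932 to 2399 higher and 1273 to 2202 lower in clone 1, 754 to 2227 and 915 to 1889 in clone 2, and 46 to 519 and 110 to 689 between the clones. Between the clones, 264 genes were higher and 549 lower without the filter on low counts, and 491 lower in the fit of 2 groups, against 155 and 310 as reported.

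The labels do not say whether equal replicate numbers pair the libraries. Deviations from group means correlated at 0.267 between clone 1 and WT, -0.0939 between clone 2 and WT and -0.113 between the clones. Libraries of the same number thus did not deviate together in every pair of groups, though clone 1 and WT did so weakly. With the replicate block, Sdc1 was also called in the mean (0.32, adjusted p 0.0459). Itgb1 was also called in clone 2 (0.63, 0.00273) and Itgb3 between the clones (-1.26, 0.00915). Sdc3 lost its call in clone 1 (0.39, 0.0518), and the other calls of members were as reported. Scaling by library totals put the median of all genes at 0.08. Members under about 1 CPM are limited by depth, above all in WT replicate 1.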

Other observations

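Besides the syndecans, 9 other genes for cell surface proteoglycans or receptors that carry heparan sulfate were listed, and 4 were tested: Gpc1, Cd44, Tgfbr3 and Nrp1. In the mean of both clones 2 of them rose and 0 fell (50% and 0%, beside 16.6% and 18.2% of all genes), and the list's median log2 change was 0.30. Glypican 1 (Gpc1), a proteoglycan held in the membrane by a lipid anchor, had 385 and 346 CPM in clone 1, 324 and 354 CPM in clone 2, against 189 and 169 CPM in WT (0.90 ± 0.12, adjusted p 8.02e-05). It was called in each alternative run. The other 5 glypicans, Gpc2 to Gpc6, had 0 counts in every library, so among the glypicans the reads fell on Gpc1 alone. Nrp1 (neuropilin 1, a receptor for VEGF and semaphorins), chosen after its values were seen, was the other gene that rose (0.41, adjusted p 0.0439). Its call was lost in 7 of 14 alternatives, among them the fits without WT replicate 1 (0.35, 0.0615), clone 1 replicate 2 (0.26, 0.172), clone 2 replicate 1 (0.40, 0.0990) and clone 2 replicate 2 (0.41, 0.0889). Tgfbr3 (-0.24) and Cd44 (0.19) were not called.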
